A study of Rattus norvegicus with 10 samples.

Results

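The enzymes of mitochondrial fatty acid oxidation were followed in rat mammary tumours through 9 genes: Cpt1a, Cpt2, Acadvl, Acadl, Acadm, Echs1, Hadha, Hadhb and Acaa2. They were chosen by name, as enzymes that carry long-chain fatty acids into the mitochondrion or catalyse a step of the oxidation cycle there. All 9 were measured, among 16778 genes tested. The tumours came from female Sprague-Dawley rats, all given 1 intraperitoneal dose of N-methyl-N-nitrosourea (MNU, 50 mg/kg), an alkylating carcinogen that induces mammary tumours, at the age of 3 weeks, and measured at 110 days. In 5 of them (WD1 to WD5) the dam had eaten a Western-style diet, high in fat and low in fibre and trace elements, on gestational days 12 to 20 and postnatal days 1 to 21. In the other 5 (CD1 to CD5) the dam had eaten the control diet on those days. All daughters ate the control diet from weaning, so the groups differ in the diet of the dam and not in the diet of the adult animal. Each tumour, of tubular or papillary type per the labels' protocols, gave 1 Agilent 1-colour array from 200 ng of total RNA. The labels do not name dams or litters, so the p-values measure the spread between tumours only, and the number of arrays limits the precision. The comparison asks whether the diet of the dam is followed by other transcript levels in tumours of the daughters.

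Long-chain fatty acids are activated to acyl-CoA and passed to carnitine by CPT1 on the outer mitochondrial membrane, the step that malonyl-CoA inhibits. A carrier brings the acylcarnitine inside, where CPT2 returns the acyl group to coenzyme A. Each turn of the cycle then shortens the chain by dehydrogenation, hydration, a second dehydrogenation and thiolysis, releasing acetyl-CoA and reduced carriers for the respiratory chain. Inherited loss of several of these enzymes causes fasting intolerance and heart or muscle disease, and the mammary gland is known, in lactation, for making fat rather than for burning it.

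Promoter sequences are shown for 3 members that lay lower in the Western-style diet group, to set a start region without GC boxes beside 1 rich in them and beside the region that a pair of partner genes shares. The RefSeq promoter table (GRCr8 assembly, windows of 250 bases before to 50 bases after the start) matched 7 of the 9 members, all but Acadl and Acaa2. The 250 bases before the start are printed 5′ to 3′ on the strand of the gene, in lower case, with GC boxes (GGGCGG or its complement CCGCCC) in capitals. Cpt1a is at chr1:209995910-209996159 (+ strand), Echs1 at chr1:204333507-204333756 (- strand) and Hadha at chr6:31907551-31907800 (+ strand).
Cpt1a: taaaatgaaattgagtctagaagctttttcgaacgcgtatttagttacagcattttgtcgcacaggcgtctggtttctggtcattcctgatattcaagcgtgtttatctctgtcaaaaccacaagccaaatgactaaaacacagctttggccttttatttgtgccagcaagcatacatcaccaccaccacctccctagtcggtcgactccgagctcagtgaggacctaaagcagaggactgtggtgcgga
Echs1: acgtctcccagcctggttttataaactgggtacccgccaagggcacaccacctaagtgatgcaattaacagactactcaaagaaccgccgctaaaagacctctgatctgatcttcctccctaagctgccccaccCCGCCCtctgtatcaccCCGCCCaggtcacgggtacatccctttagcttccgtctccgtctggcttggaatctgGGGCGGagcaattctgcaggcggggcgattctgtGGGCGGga
Hadha: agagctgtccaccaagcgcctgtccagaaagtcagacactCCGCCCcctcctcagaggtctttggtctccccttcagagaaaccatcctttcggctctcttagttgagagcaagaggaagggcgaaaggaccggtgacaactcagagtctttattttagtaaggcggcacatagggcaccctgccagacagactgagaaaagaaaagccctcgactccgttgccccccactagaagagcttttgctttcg
Most of the Hadha sequence also lies before Hadhb, read from the other strand. Hadhb starts at 31907500 on the - strand and Hadha at 31907801 on the + strand of chromosome 6, so that 300 bases lie between the starts and the windows of the pair share 200 identical bases.

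The bases before Cpt1a were 45.6% G or C and held 0 GC boxes, against 57.2% and 4 boxes for Echs1 and 53.6% and 1 box for Hadha. Over the whole 300-base windows and both strands, a GC box was found in 5 of the 7 members: Echs1 and Hadhb with 4 each, Acadm and Cpt2 with 3 each, and Hadha with 1. The box of Hadha lies in the 200 bases shared with the window of Hadhb, so that it is counted for both. A box was held by 33.1% of all 33469 promoters listed. CCAAT was found in 1 of the 7, Hadha, against 37.5% of all promoters. The DR1 element, the direct repeat read by PPAR and RXR receptors, was found in 0 of the 7 and in 0.0538% of all promoters. The estrogen-related receptor element TCAAGGTCA was found in 0 of the 7 (0.433% of all), and the NRF1 element in 0 of the 7 (4.25% of all). Both strands were searched for each. A GC box can share bases with CCAAT, and the DR1 and estrogen-related elements have a common AGGTCA. A missing match says only that these letters are not in this window.

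Levels are log2 intensities relative to the 75th percentile of the same array, so that 0 is that percentile, and differences are Western-style minus control. No member had an adjusted p under 0.05 (limma, Benjamini-Hochberg over all genes), and neither had any of the 16778 genes (0%, lowest adjusted p 0.136). At an unadjusted p under 0.05, 4 of the 9 members were lower (Acaa2, Cpt1a, Echs1 and Hadhb) and 0 were higher, where 7.72% of all genes were lower and 7.8% higher. In all, 8 of the 9 had a difference below 0, against 48.6% of all genes, and only Acadvl lay above it. The median difference was -0.41 over the members and 0.01 over all genes tested. For 1 member, Acaa2, the groups did not overlap, with every Western-style diet tumour below every control tumour, against 2.32% of all genes (3.65% did not overlap in either direction). That count was 2 without WD3, without WD4 or without CD2, and 3 without CD3. A smaller group can stand apart more easily for any gene, and no share over all genes is given for those fits. Of the genes with an unadjusted p under 0.05, 49.8% were lower, a share that was 90.9% when arrays were scaled to their median and 62.5% in the deposited matrix. Scaling to the array median moved the median of all genes to -0.24. That scaling moves every gene alike, by 1 constant per array. In the main fit the members' median is the value of Hadha's brighter probe. The members' median was -0.25 with the mean of a gene's probes and -0.25 with array brightness as a covariate. It was -0.28 with normexp background correction and -0.29 in the deposited matrix.

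**Figure D1:**
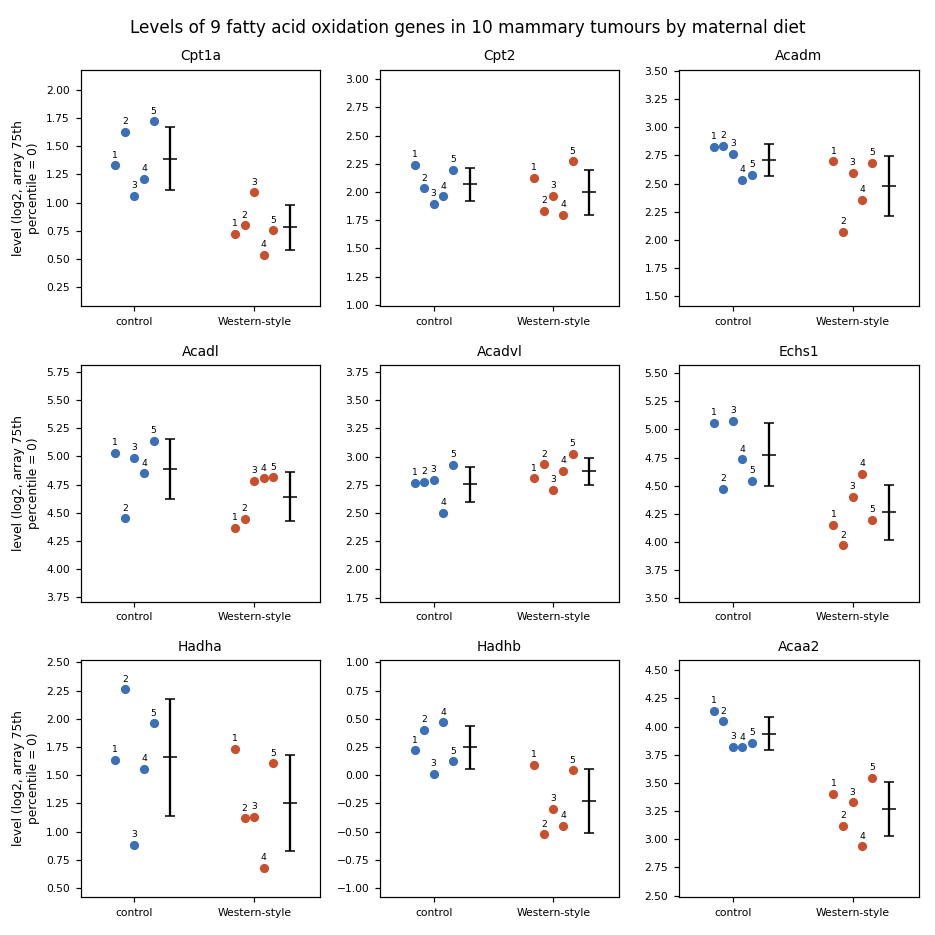
Level of each of the 9 genes (log2, with the 75th percentile of each array at 0) in the 5 control and 5 Western-style diet tumours. Points carry the replicate number, bars are the mean ± SD, and every panel spans the same number of log2 units; the groups are apart for Acaa2 alone, and Cpt1a overlaps by WD3 and CD3 only.

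The 75th percentile of array intensity ran from 72.8 to 170 in the Western-style diet group and from 85.0 to 226 in the control group, and the 4 brightest arrays were controls. From 16683 to 21904 probes of an array stood well above background, and array pairs correlated at 0.915 to 0.977 over the tested genes. Each of the 3 slides held both groups: 2 Western-style diet tumours and 1 control on slide 1, 2 and 2 on slide 2, and 1 and 2 on slide 3. All 12 probes of the members were well above background on all 10 arrays, and none was saturated. Of 15 luminal epithelial markers, the lineage the tissue label implies, 13 were measured.

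Cpt1a, the liver-type outer-membrane carnitine palmitoyltransferase that sets the rate of entry, was 1.52-fold lower in the Western-style diet group. The levels of Cpt1a were 0.72, 0.80, 1.09, 0.54 and 0.76 in WD1 to WD5 and 1.33, 1.63, 1.06, 1.21 and 1.72 in CD1 to CD5. No Western-style diet tumour reached the control mean, and the groups overlapped only in that WD3 exceeded CD3. The means were 0.78 ± 0.20 and 1.39 ± 0.28 (SD, n = 5 each), a difference of -0.61 (SE 0.17, 95% interval -0.98 to -0.24). The exact two-sided permutation p was 0.0159, where all splits of 5 against 5 cannot give less than 0.00794, and the adjusted p in limma was 0.181. The probe has 10 spots on each array, whose SD within an array was 0.051 to 0.197. Within slides 1, 2 and 3 the difference was -0.87, -0.58 and -0.51.

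Cpt2, the inner-membrane transferase that completes entry, had levels of 2.13, 1.83, 1.97, 1.80 and 2.27 in WD1 to WD5 and 2.24, 2.03, 1.90, 1.96 and 2.20 in CD1 to CD5. The groups covered almost the same range, and the highest tumour of all was WD5. The difference was -0.07 (SE 0.14, 95% interval -0.39 to 0.25, exact permutation p 0.556), an interval that holds differences of either sign. It was 0.11 with array brightness as a covariate and 0.17 within slide 3. Of the 7 listed genes of carnitine transport besides these, 5 were measured, 3 lower and 2 higher (median -0.08). Slc25a20, the carnitine-acylcarnitine carrier that works between Cpt1a and Cpt2, was 1.30-fold lower (-0.38, adjusted p 0.261 in limma). Cpt1b, the muscle-type isoform, and Cpt1c, the brain-type isoform, had differences of 0.33 (adjusted p 0.469) and 0.41 (adjusted p 0.347). These isoforms thus lay on the other side of 0 from Cpt1a, though the contrast between isoforms was not tested.

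The 3 acyl-CoA dehydrogenases, which open each turn of the cycle for very long, long and medium chains, each overlapped between the groups on the probe used. Acadl, the long-chain enzyme, had levels of 4.37, 4.45, 4.78, 4.81 and 4.81 in WD1 to WD5 and 5.03, 4.45, 4.99, 4.85 and 5.14 in CD1 to CD5. The controls other than CD2 lay above every Western-style diet tumour, and CD2 lay among the lowest. The difference was -0.25 (SE 0.17, 95% interval -0.62 to 0.13, exact permutation p 0.143), and without CD2 it was -0.36 (unadjusted p 0.0453 in limma) and with slide as a block -0.16 (0.209). Acadm, the medium-chain enzyme, had levels of 2.70, 2.07, 2.60, 2.36 and 2.69 in WD1 to WD5 and 2.82, 2.84, 2.76, 2.53 and 2.58 in CD1 to CD5. WD2 was the lowest tumour, and CD4 and CD5 lay within the range of the Western-style diet group. The difference was -0.23 (SE 0.16, 95% interval -0.57 to 0.12, exact permutation p 0.135), and it was 0.01 within slide 3 against -0.45 within slide 1. In the deposited matrix and with normexp background correction it was -0.21 and -0.20 (unadjusted p 0.0397 and 0.0433 in limma). Without WD2 it was -0.12 (0.411), and with array weights -0.15 (0.340).

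Acadvl, the very-long-chain enzyme bound to the inner membrane, was the 1 member with a difference above 0, and its probes disagreed. Its brighter probe (A_42_P606073) had levels of 2.81, 2.93, 2.71, 2.88 and 3.03 in WD1 to WD5 and 2.77, 2.78, 2.80, 2.50 and 2.93 in CD1 to CD5. The groups overlapped, with CD4 the lowest tumour and WD5 the highest. The difference was 0.12 (SE 0.13, 95% interval -0.18 to 0.41, exact permutation p 0.222). With arrays scaled to their median it was -0.14, though still 0.10 above the median of all genes on that scale. The dimmer probe (A_44_P498890) had levels of 1.54, 1.15, 0.82, 1.18 and 1.39 in WD1 to WD5 and 1.71, 1.79, 1.32, 1.69 and 1.64 in CD1 to CD5. All controls but CD3 lay above every Western-style diet tumour. The difference was -0.42 (SE 0.17, adjusted p 0.266 in limma over all probes), 1.33-fold lower. Over the 10 tumours the probes correlated at r -0.18 (permutation p 0.617) and rho -0.30 (permutation p 0.411), and at r 0.10 without the 2 tumours farthest from the median. The direction for Acadvl therefore depends on the probe, and their mean gave a difference of -0.15. RefSeq also lists a pseudogene of Acadvl, and whether either probe reads its transcripts was not tested.

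Of the 8 other acyl-CoA dehydrogenases listed, 6 were measured, 3 lower and 3 higher (median -0.05). Acads, the short-chain enzyme, differed by 0.07 (adjusted p 0.861 in limma). It was -0.18 with arrays scaled to their median and -0.086 with array brightness as a covariate. Ivd, the isovaleryl-CoA dehydrogenase of leucine breakdown, was 1.31-fold lower (-0.39, adjusted p 0.276 in limma). Acad11, which acts on hydroxylated fatty acids, differed by -0.55 (adjusted p 0.396 in limma), but only 2 of 5 arrays in the Western-style diet group and 4 of 5 in the control group had it well above background.

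Echs1, the short-chain enoyl-CoA hydratase that adds water to the double bond, was 1.42-fold lower in the Western-style diet group. Its levels were 4.15, 3.97, 4.40, 4.60 and 4.20 in WD1 to WD5 and 5.06, 4.47, 5.07, 4.73 and 4.54 in CD1 to CD5. Each of WD1 to WD5 was below the mean of the controls, and WD4 alone exceeded any control, namely CD2 and CD5. The means were 4.26 ± 0.24 and 4.77 ± 0.28 (SD, n = 5 each), a difference of -0.51 (SE 0.18, 95% interval -0.90 to -0.12). The exact permutation p was 0.0238 and the adjusted p in limma 0.228. Within slides 1, 2 and 3 it was -0.41, -0.31 and -0.70.

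Hadha and Hadhb encode the alpha and beta subunits of the mitochondrial trifunctional protein, which carries hydration, the second dehydrogenation and thiolysis of long chains. Hadha had levels of 1.74, 1.12, 1.13, 0.68 and 1.61 in WD1 to WD5 and 1.63, 2.26, 0.88, 1.56 and 1.96 in CD1 to CD5. The groups overlapped widely, with CD3 below 4 of the Western-style diet tumours. The means were 1.25 ± 0.42 and 1.66 ± 0.52 (SD, n = 5 each), the widest SDs among the members. The difference was -0.41 (SE 0.27, 95% interval -1.01 to 0.20, exact permutation p 0.214), and it was 0.094 with array brightness as a covariate and 0.01 within slide 3. Without CD3 it was -0.60 (unadjusted p 0.0332 in limma), without CD2 -0.25 (0.368) and without WD4 -0.26 (0.360). Hadhb had levels of 0.09, -0.53, -0.30, -0.45 and 0.04 in WD1 to WD5 and 0.22, 0.40, 0.02, 0.47 and 0.12 in CD1 to CD5. All controls but CD3 lay above every Western-style diet tumour. The difference was -0.47 (SE 0.17, 95% interval -0.84 to -0.10), 1.39-fold lower, with an exact permutation p of 0.0238 and an adjusted p of 0.234 in limma. With array brightness as a covariate it was -0.26 (unadjusted p 0.206 in limma). Within slides 1, 2 and 3 it was -0.62, -0.44 and -0.30.

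The dimmer probe of Hadha (A_44_P414469) did not follow the brighter one (A_44_P480296). Its levels were -1.49, -1.01, -1.84, -1.56 and -1.80 in WD1 to WD5 and -1.29, -1.44, -1.75, -1.77 and -1.83 in CD1 to CD5. WD2 was the highest tumour on this probe, and the rest of the 2 groups covered much the same range. The difference was 0.08 (SE 0.19, adjusted p 0.872 in limma over all probes), and the probes correlated at r -0.02 (permutation p 0.966) and rho 0.03 (permutation p 0.947), or at r -0.16 without the 2 farthest tumours. The mean of the probes gave -0.16. The level of Hadha is therefore uncertain in a way that the level of Hadhb, with 1 probe, could not be checked for.

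Acaa2, the mitochondrial 3-ketoacyl-CoA thiolase that closes the turn for medium and shorter chains, had the largest difference of the 9 in size and was 1.59-fold lower in the Western-style diet group. Its levels were 3.40, 3.12, 3.33, 2.94 and 3.54 in WD1 to WD5 and 4.14, 4.05, 3.82, 3.82 and 3.86 in CD1 to CD5. The highest Western-style diet tumour, WD5, lay below the lowest controls, CD3 and CD4. The means were 3.27 ± 0.24 and 3.94 ± 0.15 (SD, n = 5 each), a difference of -0.67 (SE 0.15, 95% interval -1.005 to -0.335). The exact permutation p was 0.00794, the smallest possible here, and the adjusted p in limma was 0.181. Within slides 1, 2 and 3 it was -0.79, -0.71 and -0.44.

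The other probe of Acaa2 (A_44_P242329) gave the same picture. Its levels were 2.21, 2.01, 1.90, 1.80 and 2.22 in WD1 to WD5 and 2.87, 2.93, 2.58, 2.60 and 2.77 in CD1 to CD5. These groups were apart as well, and WD4 was lowest on both probes. The difference was -0.72 (SE 0.14, adjusted p 0.172 in limma over all probes), 1.65-fold lower, and the probes correlated at r 0.97 (permutation p 2e-05) and rho 0.96 (permutation p 6e-05), with r 0.97 also without the 2 farthest tumours. Of the 3 members with a pair of probes, Acaa2 was the 1 whose probes agreed in direction.

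**Figure D2:**
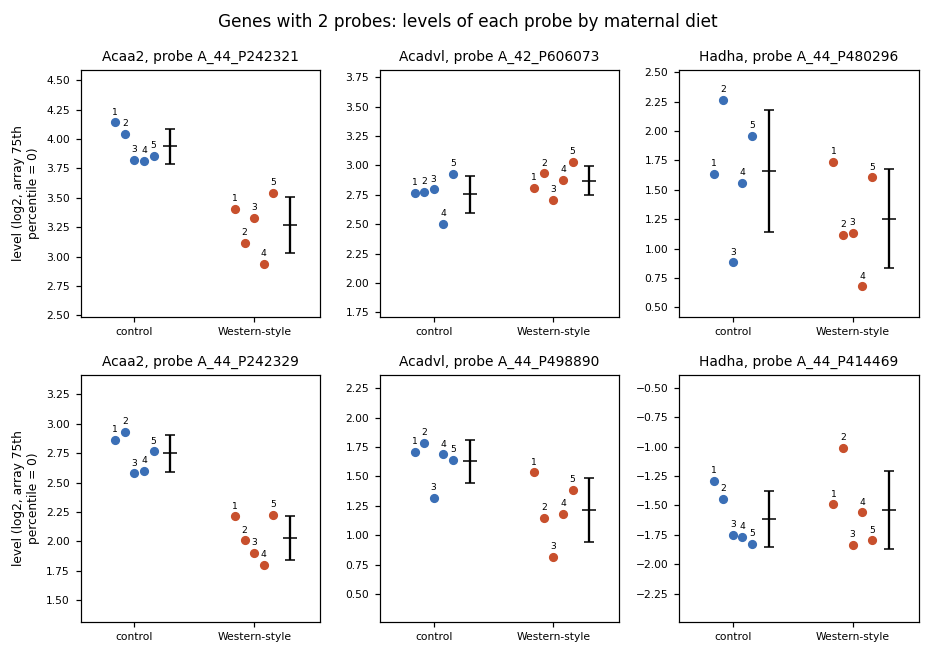
Levels (log2, with the 75th percentile of each array at 0) of both probes of Acaa2, Acadvl and Hadha in 5 control and 5 Western-style diet tumours, with replicate numbers and mean ± SD. Both Acaa2 probes separate the groups (-0.67 and -0.72), whereas the probes of Acadvl (0.12 and -0.42) and Hadha (-0.41 and 0.08) differ in direction.

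**Figure D3:**
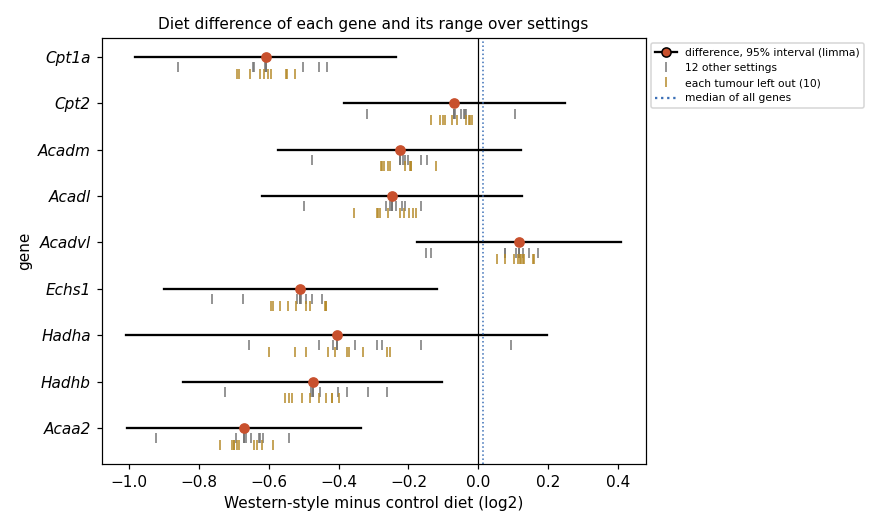
Difference of each gene (Western-style minus control, log2) with its 95% interval from limma; ticks below each line show the value under each of 12 other settings and with each of the 10 tumours left out. The intervals of Cpt1a, Echs1, Hadhb and Acaa2 lie below 0, the others span 0, and ticks cross 0 for Cpt2, Acadvl and Hadha.

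The 9 genes did not place the tumours in 1 order. Averaged as standardized levels, the members were lowest in WD2 (-1.06) and WD4 (-0.84), followed by WD3 (-0.40) and WD1 (-0.24). WD5 (0.22) lay within the control tumours, above CD3 (0.17) and CD4 (0.05) and below CD2 (0.53), CD5 (0.75) and CD1 (0.81). WD4 was the lowest of all 10 tumours for 4 members and WD2 for 3. CD3 was the lowest control for 4 members and the highest of all 10 tumours for Echs1.

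Of the 36 pairs of members 27 had a positive correlation over the 10 tumours, with a median r of 0.39 and a range of -0.47 to 0.86. Unadjusted permutation p-values were under 0.05 for 9 pairs and Benjamini-Hochberg adjusted ones for 0. Hadhb and Acaa2 had the highest r, 0.86 (rho 0.78, permutation p 0.00146, adjusted 0.0526), which was 0.69 without the 2 farthest tumours. Hadha and Hadhb, partners in 1 protein and in the start region shown, correlated at r 0.75 (rho 0.72, permutation p 0.0140, adjusted 0.111), and at 0.77 without the 2 farthest tumours. Their r was 0.71 for deviations from the group means, which the diet difference does not enter. Hadha is here its brighter probe, which the other Hadha probe did not follow. Both genes also correlated with array brightness, Hadha at r 0.80 and Hadhb at r 0.79, and within groups at 0.75 and 0.64. The part of brightness in the correlation of this pair was not tested. Cpt1a and Acaa2 correlated at r 0.81 (rho 0.79, permutation p 0.00511, adjusted 0.0920) and at 0.84 without the 2 farthest tumours, but at 0.33 within groups.

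Within groups the median r of the 36 pairs was 0.19, with 24 positive and a range of -0.74 to 0.84. Cpt2 and Acaa2, whose diet differences were unlike, had the highest value (0.84). Echs1 and Hadha had the lowest (-0.74, permutation p 0.0153 before adjustment), while over all tumours they stood at r -0.14 (rho -0.19). Echs1 correlated best with Acadl (r 0.71, rho 0.76, permutation p 0.0242, adjusted 0.142, and r 0.47 without the 2 farthest tumours). The median r with the other members was highest for Acaa2 (0.63), Hadhb (0.59) and Hadha (0.59) and lowest for Acadvl (-0.23), which was positive with 1 of 8.

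**Figure D4:**
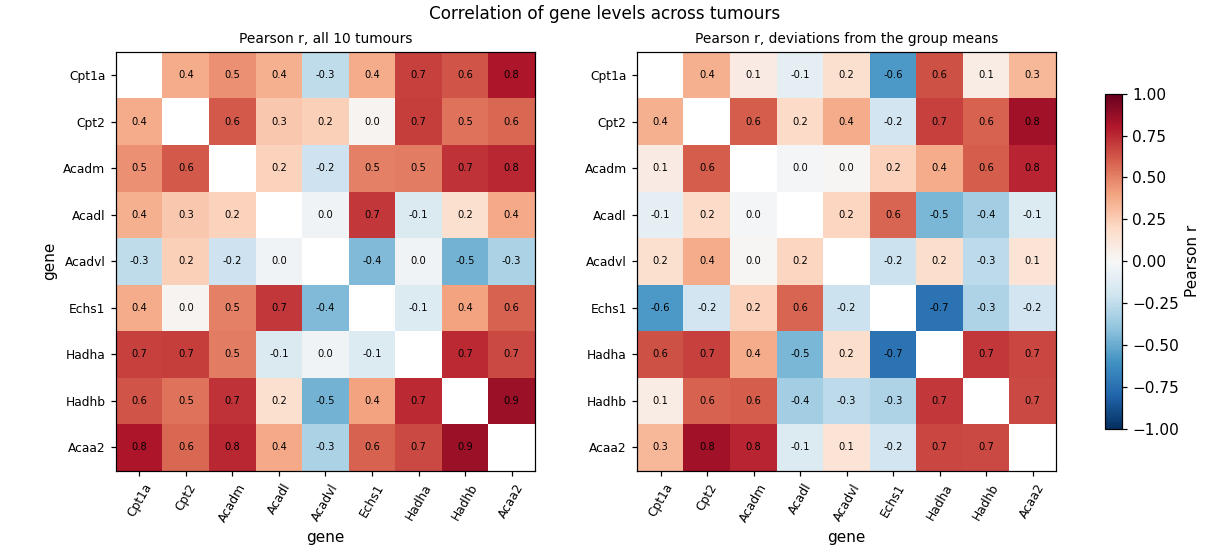
Pearson r between the levels of each pair of the 9 genes, over all 10 tumours (left) and for deviations from the group means (right), on a colour scale from -1 to 1. Hadha, Hadhb and Acaa2 are positively related in both panels, Acadvl is at or below 0 with all but Cpt2 on the left, and Echs1 and Hadha are opposed on the right.

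Among 8249 named genes that are no member, 38 had an r above 0.9 with the mean standardized level of the members over the 10 tumours. The 5 nearest were Ndufs8, a subunit of respiratory complex I (r 0.97, rho 0.95), Ppp1ca, a catalytic subunit of protein phosphatase 1 (r 0.97, rho 0.96), Tbcc, a tubulin-folding cofactor (r 0.97, rho 0.98), Dmap1, a chromatin-complex subunit (r 0.97, rho 0.94), and Ywhaq, a 14-3-3 protein (r 0.96, rho 0.94). They were picked as the highest of many, so no p is given. Their own differences were -0.52, -0.24, -0.39, -0.43 and -0.50, with adjusted p-values of 0.183 to 0.420 in limma.

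Around the cycle, no gene of any list had an adjusted p under 0.05 in limma, and counts at an unadjusted p under 0.05 are given here. Of all genes, 7.72% were lower and 7.8% higher under that p. Of 14 genes of fatty acid uptake, binding and activation 10 were measured, 4 lower and 6 higher (median 0.03), 0 of them under that p. The acyl-CoA synthetases Acsl1 and Acsl5 differed by 0.40 and -0.27. All 10 auxiliary and short-chain enzymes were measured, 8 lower and 2 higher (median -0.18), with 2 lower under that p. These were Eci1, the isomerase for unsaturated chains (1.41-fold lower, -0.50, adjusted p 0.259), and Hsd17b10, a short-chain hydroxyacyl-CoA dehydrogenase that also acts in mitochondrial tRNA processing (1.34-fold lower, -0.42, adjusted p 0.314). Hadh, the medium- and short-chain hydroxyacyl-CoA dehydrogenase, differed by -0.27 (adjusted p 0.468). The 3 genes that take electrons from the acyl-CoA dehydrogenases had a median of -0.06, with Etfa at -0.30 and Etfb, the other subunit of the same flavoprotein, at 0.14. Etfb was -0.11 with arrays scaled to their median.

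Oxidation of fatty acids in peroxisomes was represented by 3 measured genes of 9, 0 lower and 3 higher (median 0.04). Hsd17b4, the bifunctional enzyme, and Abcd3, a membrane transporter, differed by 0.11 and 0.04. With arrays scaled to their median these were -0.15 and -0.21. Of 4 ketone body genes 3 were measured, 2 lower and 1 higher (median -0.32). Oxct1, which serves the use of ketone bodies, differed by -0.32 (adjusted p 0.448 in limma). Of 17 genes of mitochondrial content and the citrate cycle 13 were lower and 4 higher (median -0.16), where 48.6% of all genes were below 0. At an unadjusted p under 0.05, 2 of the 17 were lower, against 7.72% of all genes. Among them was Mdh2, the mitochondrial malate dehydrogenase (1.31-fold lower, -0.39, adjusted p 0.262 in limma). With array brightness as a covariate Eci1 was -0.38 (unadjusted p 0.148), Mdh2 -0.19 (0.280), Slc25a20 -0.37 (0.0787), Ivd -0.27 (0.204) and Hsd17b10 -0.13 (0.521). With 1 tumour left out, the unadjusted p reached 0.0533 for Eci1 (above 0.05 only without CD2) and 0.0569 for Slc25a20 (without CD1 or WD2). It reached 0.0696 for Mdh2 (without CD1, WD2, WD3 or WD4) and 0.0787 for Ivd (without CD1, CD4, WD1, WD2 or WD3). For Hsd17b10 it reached 0.105 and was above 0.05 without CD1, CD2, CD5 or any of WD1 to WD4.

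**Figure D5:**
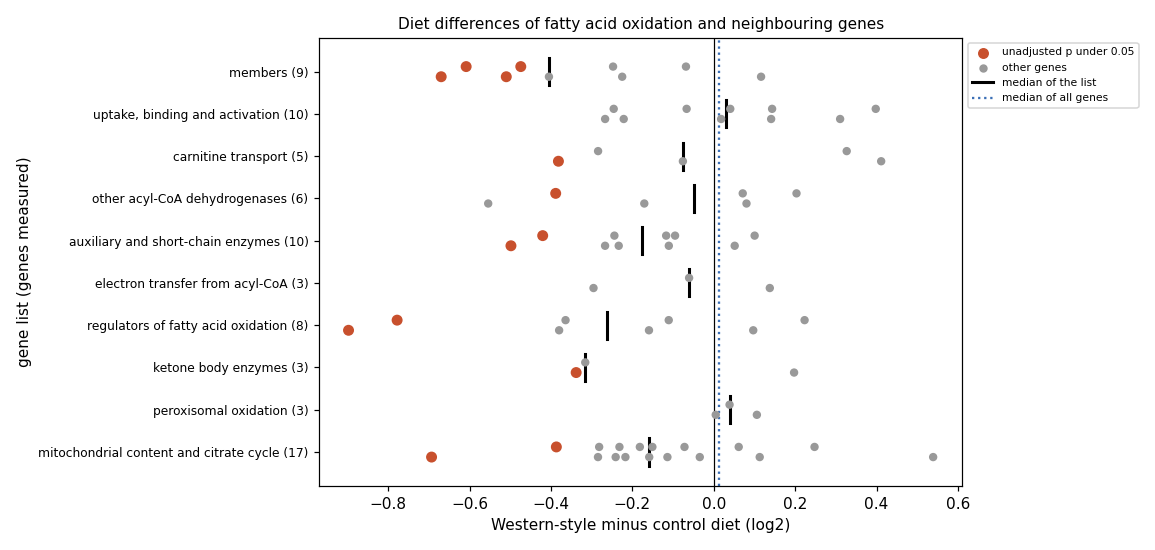
Difference (Western-style minus control, log2) of each measured gene in the list of 9 members and in 9 lists of neighbouring pathways, with a black bar at the median of each list and a dotted line at the median of all genes (0.01). Larger red points had an unadjusted p under 0.05; the members' median is -0.41, and those of the other lists run from -0.32 (ketone bodies) to 0.04 (peroxisomes).

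Of 15 regulators of fatty acid oxidation 8 were measured, 6 lower and 2 higher (median -0.26). At an unadjusted p under 0.05, 2 of the 8 were lower, against 7.72% of all genes. Ucp2, a carrier of the inner mitochondrial membrane, was 1.86-fold lower: its means were 3.10 ± 0.37 and 4.00 ± 0.32 (SD, n = 5 each), a difference of -0.90 with an adjusted p of 0.181 in limma. It was -0.55 with array brightness as a covariate (unadjusted p 0.0306). Ppargc1b, a coactivator of nuclear receptors that drives mitochondrial genes, differed by -0.78 (adjusted p 0.181), but by -0.35 in the deposited matrix and -0.37 with normexp background correction. It stood well above background in 3 of 5 tumours of the Western-style diet group and in all 5 controls. For Ucp2 and Ppargc1b every Western-style diet tumour lay below every control, as for 2.32% of all genes. Acaca, a maker of the malonyl-CoA that inhibits CPT1, differed by -0.11 (adjusted p 0.886) and was well above background on 2 of 5 and 4 of 5 arrays. It was 0.067 with array brightness as a covariate, 0.15 without WD4 and 0.05 without CD2. Its mitochondrial counterpart Acacb, the receptor Ppara and the coactivator Ppargc1a were not well above background on any of the 10 arrays and were not tested.

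Other cells of the tumour can carry these transcripts, and in whole tumours fewer cells of a type and less RNA per cell cannot be told apart. The counts below stand beside 48.6% of all genes with a difference below 0. At an unadjusted p under 0.05 in limma, 7.72% of all genes were lower and 7.8% higher. Luminal epithelial markers were lower in 10 of 13 measured genes (5 at an unadjusted p under 0.05, median -0.33), with summed linear levels of 472 to 734 in the Western-style diet group and 523 to 678 in the control group. Among these 5 was Esr1, which all 5 control arrays detected and 0 arrays of the other group did. It met the filter of at least 5 arrays through the controls alone, which favours a lower call for it. Krt18, the brightest luminal marker, weighs most in the luminal sums. Its mean level was 8.62 in the Western-style diet group and 8.58 in the control group, a difference of 0.04. The luminal sums therefore say little about the dimmer luminal markers. Basal and myoepithelial markers were lower in 5 of 7 (1 lower under that p, sums 64.4 to 90.0 and 62.8 to 95.3). All 13 macrophage and monocyte markers were higher (2 under that p, sums 76.4 to 355 and 96.4 to 191), as were all 6 T and NK cell markers (4 under that p, sums 11.6 to 36.9 and 8.35 to 15.7) and all 12 fibroblast and matrix markers (3 under that p, sums 75.2 to 260 and 63.1 to 168). Mast cell markers were lower in 5 of 6 (1 lower under that p, sums 2.08 to 14.0 and 5.71 to 22.8) and proliferation genes in 8 of 9 (2 under that p, sums 8.49 to 31.6 and 14.8 to 42.9). The part of these shifts in the members' differences was not tested.

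Of markers of fat and muscle, the latter rich in these enzymes, some were detected and others were not. Of 12 adipocyte markers 5 were measured, 4 higher and 1 lower (median 0.77, 0 at an unadjusted p under 0.05 in limma). Their sums were 5.18 to 36.5 and 5.54 to 36.2. Cfd, the brightest of the 5, was well above background on all 10 arrays. Its mean level was 3.53 in the Western-style diet group and 2.76 in the control group. Adipoq was well above background on 4 arrays, and Lep and Cidec on 0. Brown adipocyte markers were measured for 2 of 6, both lower (sums 0.354 to 1.07 and 0.490 to 3.87), and Ucp1 and Elovl3 were above background on 0 arrays. Striated muscle markers were measured for 5 of 10, 3 higher and 2 lower (sums 3.05 to 4.79 and 2.84 to 5.68). At an unadjusted p under 0.05, 1 of them was higher, against 7.8% of all genes. Tnni2, the brightest muscle marker, was well above background on all 10 arrays, with means of 1.33 (Western-style diet) and 1.07 (control). Ckm, Acta1, Myh1 and Myh4 were above background on 0 arrays.

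Array brightness, the log2 75th percentile of intensity, moved with some members. In 9 tests, Hadha correlated with it at r 0.80 (rho 0.76, permutation p 0.00800, adjusted 0.0360) and Hadhb at r 0.79 (rho 0.84, permutation p 0.00673, adjusted 0.0360). Without the 2 tumours farthest from the median these were 0.81 and 0.67, and within groups 0.75 and 0.64. Acaa2 followed with r 0.71 (rho 0.71, adjusted permutation p 0.0750), Cpt2 with 0.67 (rho 0.53, adjusted 0.0862) and Cpt1a with 0.65 (rho 0.62, adjusted 0.0862). Echs1 (r 0.22, rho 0.26) and Acadvl (r -0.06, rho -0.05) showed little relation over all tumours. Within groups r was 0.45 for Acaa2, 0.71 for Cpt2, 0.31 for Cpt1a, -0.44 for Echs1 and 0.28 for Acadvl. With brightness as a covariate, which also left only 964 genes at an unadjusted p under 0.05 instead of 2603, Acaa2 was -0.54 (unadjusted p 0.0159 in limma), Echs1 -0.67 (0.0113) and Cpt1a -0.50 (0.0417). Then 6 of the 9 members were lower and 3 had an unadjusted p under 0.05.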

How the data were processed

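RNA of 10 mammary tumours, 5 from each maternal diet, was measured on 1-colour Agilent arrays. Per the file headers, the authors read the scans with Agilent Feature Extraction 11.5.1.1; the submitters' processing notes name 15.5. The deposited array files give intensity values per spot as processed signals, background-subtracted per the file headers, with marks for outlier, saturated and well-above-background spots. The matrix that the authors deposited for the series is in log2 units. On each array its values follow the order of the median signals (Spearman correlation 1), and its array medians lie between 6.967 and 6.979. Its way of normalisation was not tested, and its tool is not given in the sources used.

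From the processed signals, log2 levels were computed relative to the 75th percentile over the 43379 measuring spots, without outlier spots and with the mean over the spots of 1 probe. Probes were kept when well above background, in most of their usable spots, on at least 5 arrays (19744 of 41012 probes), and the kept probe of highest mean level stood for a gene. Names came from RefSeq (GRCr8) through transcript identifiers (17502 probes named); the array's own coordinates are on another build, so only promoter coordinates are given. The groups were fitted in R 4.3.3 with limma 3.58.1 (data.table package, version 1.17.8), Benjamini-Hochberg adjusted over all genes at 0.05, and with exact permutations per gene. Correlations used 100000 resamples in Python 3.11.15 (numpy 2.4.6, matplotlib 3.10.9). On simulated data with 100 genes changed 2-fold and 100 changed 4-fold among 16778 genes, 49% and 91% were recovered with 7 false calls among 147. With no change there were 0 calls. The simulated noise was independent between genes, without variation shared by the genes of an array. Changes under 2-fold, as those of the members are, were not simulated, so the rates do not apply to the members. Slide and scan coincide and cannot be told apart.

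The members, lists and rules were chosen with earlier results of these data known. Named besides the members are, in each pathway list, the 2 genes of smallest p, 9 genes fixed by name and the 5 genes nearest in pattern. Genes of cell type lists are given as counts and sums, with Krt18, Cfd and Tnni2 named for their weight in a sum. Adipoq, Lep, Esr1 and the others at or near background are given by how many arrays detected them. Of the genes this rule names, 2 are not reported here. Lists have no set test. Alternatives covered background correction, scaling, the matrix values, the dim-probe filter, probe averaging, slide, replicate number, brightness, the variance model, array weights and each tumour left out.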

Additional observations from a re-analysis of the deposited data

Results flagged for a closer look

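In 72 groups of 5 tumours, covering the members and the other named genes, 3 held a tumour that stood apart from the rest of its group by more than 0.71 of the whole range; chance gives about 1 in 20 such groups. Acad11 was at -2.72 in CD3, against -1.42 to -1.15 in the other controls. Hadh was at 4.65 in WD3, against 4.18 to 4.29 in the other Western-style diet tumours. Acaca was at -3.50 in WD4, against -2.40 to -2.04 in the other Western-style diet tumours. No member had such a tumour in either group.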

How the results depend on the processing

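Every setting, and every fit with 1 tumour left out, gave 0 genes and 0 members with an adjusted p under 0.05 in limma. Acaa2, Cpt1a and Echs1 kept their direction and an unadjusted p under 0.05 throughout, and Hadhb did so except with brightness as a covariate. With arrays scaled to their median, 7 members instead of 4 had an unadjusted p under 0.05. Over all 16778 genes, those lower under that p then numbered 3308 instead of 1295, and those higher 331 instead of 1308. The groups of 2 members did not overlap, but the share of all genes not overlapping is given for the main fit only. The members' median was -0.66, where all genes shift to -0.24. It was smallest in size with the mean of a gene's probes and with brightness as a covariate, -0.25 in each. With median scaling Acadvl was -0.14, Acads -0.18, Etfb -0.11, Hsd17b4 -0.15 and Abcd3 -0.21. The groups of 2 members also did not overlap with normexp background correction and in the deposited matrix. The mean of a gene's probes gave Acadvl -0.15. With brightness as a covariate Cpt2 was 0.11, Hadha 0.094, Acad11 0.016, Abcd3 -0.019, Acads -0.086 and Acaca 0.067. The cause of these turns was not tested, beyond the shift of all genes under median scaling. With no filter on dim probes 36061 genes were tested, and their median was 0.34. Then 7055 genes had an unadjusted p under 0.05 instead of 2603 (15.0% of them lower). The cause of that rise was not tested. With a tumour left out, the median of the members ran from -0.49 to -0.29, the members at an unadjusted p under 0.05 from 4 to 5, those whose groups did not overlap from 1 to 3, all genes at an unadjusted p under 0.05 from 1853 to 3284, Abcd3 from -0.036 to 0.15 and Acaca from -0.22 to 0.15. The counts of lower and of not overlapping members and of unadjusted calls over all genes were added after their values were seen. Replicate numbers did not pair the tumours: same-numbered tumours' deviations correlated at -0.02 to 0.16, and no tumour matched its own number best. A replicate block left 4 members at an unadjusted p under 0.05 and 0 genes past the adjusted one. Acad11, Ppargc1b and Acaca have no value where probes had to be above background on all 10 arrays. Signals near background limit Acad11, Acaca, Ppargc1b and the receptors.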
